A study of Mus musculus with 9 samples.

Results

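The genes described here code for subunits of the voltage-gated calcium channels and were chosen by symbol. They are 8 pore-forming subunits, Cacna1a, Cacna1b, Cacna1c, Cacna1d, Cacna1e, Cacna1g, Cacna1h and Cacna1i, and 2 alpha2delta subunits, Cacna2d1 and Cacna2d2, the binding sites of gabapentin. All 10 were found among the 40879 gene symbols listed for spinal cord of male mice, and all 10 passed the filter on low counts. RNA-seq was done on 3 libraries from each of 3 groups. The first group, SNI+LDN193189, combined SNI with LDN193189, an inhibitor of the type I receptor kinases for bone morphogenetic proteins. The second was SNI alone, and the last was sham. The labels do not spell out SNI, which in work on neuropathic pain usually stands for spared nerve injury. Strain, age, cord segment and side, time after injury, and the compound's dose, route and vehicle are not stated in the labels. The replicates are called biosamples and are not said to be separate animals, so the p-values measure the spread between these samples only, which may be technical.

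A voltage-gated calcium channel opens when a membrane depolarises and lets calcium into the cell. The pore is a large alpha1 subunit, which sets the channel type, and auxiliary beta and alpha2delta subunits carry it to the membrane and shape its current. P/Q-type, N-type and R-type channels trigger transmitter release at synapses, L-type channels couple activity to firing and gene expression, and T-type channels open near rest and favour burst firing. In the dorsal horn of the cord, calcium entry through these channels controls release from the endings of sensory neurons. Gabapentin and pregabalin, used against neuropathic pain, bind alpha2delta subunits, and the N-type pore is the target of ziconotide.

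The column letters L, N and S were read as SNI+LDN193189, SNI and sham, and if S stood for SNI the directions would turn. As a check, Sprr1a, a gene of injured neurons, had 6.38, 17.4 and 0.688 CPM (counts scaled to the same library size with edgeR's TMM factors) in SNI+LDN193189 libraries, against 6.62, 15.1 and 23.0 CPM in SNI and 0.161, 0.235 and 0.215 CPM in sham. Replicate 3 of SNI+LDN193189 was thus much closer to the sham libraries in this gene than the other 2 SNI+LDN193189 libraries were. Atf3 gave the same picture, with 5.63, 9.80 and 1.15 CPM in SNI+LDN193189, 5.83, 8.61 and 12.2 CPM in SNI, and 1.34, 1.17 and 3.07 CPM in sham. The libraries held 33432776 to 37190467 counts. The protocol text speaks of cell lines, but cord markers were present: Slc6a5, the glycine transporter of inhibitory neurons, had 495 to 615 CPM, and of the brain markers, Gabra6 of cerebellar granule cells was listed at 0 in 8 of the 9 libraries while Neurod6, a factor of forebrain neurons, had 4.04 to 6.19 CPM. Among the genes of position along the cord, Hoxd10 had 40.3, 39.2 and 6.85 CPM in SNI+LDN193189, 31.7, 38.8 and 55.4 CPM in SNI, and 57.9, 40.0 and 47.1 CPM in sham. SNI+LDN193189 replicate 3 was thus the lowest in Hoxd10, and it was also the lowest in Hoxc10, at 46.6 CPM against 63.5 to 81.2 CPM in the other libraries. The part of cord level in the results was not tested. Markers of neighbouring tissues differed between libraries. The summed level of 9 skeletal muscle genes was 3.68 to 16.5 CPM in SNI+LDN193189, 3.71 to 4.15 CPM in SNI and 8.48 to 712 CPM in sham, with the highest value in replicate 1. That of 9 Schwann cell and nerve root genes was 481 to 1298 CPM in SNI+LDN193189, 134 to 583 CPM in SNI and 557 to 4423 CPM in sham, with the highest value in replicate 3. Within SNI+LDN193189 the highest Schwann cell value was that of replicate 1.

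The start regions of 3 of these genes are printed, with the gabapentin target first. They are examples of how the sequence before the start differs among genes of the same channel family. Each is the 250 bases before the annotated start (RefSeq, GRCm38.p6), 5′ to 3′ on the gene's own strand, and capitals mark GGGCGG or its reverse complement CCGCCC, the core of a GC box, with overlapping matches allowed. The first lies at chr5:15934441-15934690 (+), the second at chr2:24763153-24763402 (-) and the third at chr15:80286988-80287237 (+).
Cacna2d1: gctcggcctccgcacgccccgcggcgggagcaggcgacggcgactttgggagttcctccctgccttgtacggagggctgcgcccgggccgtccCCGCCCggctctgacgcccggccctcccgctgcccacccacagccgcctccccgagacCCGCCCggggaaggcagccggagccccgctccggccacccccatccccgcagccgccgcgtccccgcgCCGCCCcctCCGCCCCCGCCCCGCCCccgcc
Cacna1b: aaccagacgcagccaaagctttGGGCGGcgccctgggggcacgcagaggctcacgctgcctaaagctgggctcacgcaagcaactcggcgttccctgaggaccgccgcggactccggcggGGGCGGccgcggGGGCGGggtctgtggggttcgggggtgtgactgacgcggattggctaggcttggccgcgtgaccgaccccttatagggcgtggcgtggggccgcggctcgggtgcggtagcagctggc
Cacna1i: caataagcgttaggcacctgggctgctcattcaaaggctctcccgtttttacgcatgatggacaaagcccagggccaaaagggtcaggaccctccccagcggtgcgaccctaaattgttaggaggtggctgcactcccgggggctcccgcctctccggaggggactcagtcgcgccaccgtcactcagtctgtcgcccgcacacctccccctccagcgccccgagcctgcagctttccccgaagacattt
The Cacna2d1 window was 82.4% G or C with 36 CpG and 6 GC box cores, the Cacna1b window 72.0% with 29 CpG and 3 cores, and the Cacna1i window 62.4% with 16 CpG and no core. For scale, 32.7% of the 32851 start windows in the table held the core on either strand, and the median window was 52.4% G or C. The table held 10 windows for 7 of the 10 genes, and 5 of the 10 windows held the core. Neither TATAAA nor the cyclic AMP element TGACGTCA, searched on both strands, was in the 3 windows printed. The 10 windows ran from 39.6 to 86.4% G or C, with both ends in windows of Cacna1d. Only the 39.6% window held TATAAA. These matches describe letters only.

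Per unit of length, Cacna2d2 was the most abundant of the 10 transcripts. On the authors' FPKM scale (counts scaled by the length of the gene and by the library total) Cacna2d2 averaged 17.3 ± 1.01 (SD, n = 9 libraries), and its lowest library, at 16.0, was above every library of the other 9 genes. Behind it came the T-type pore Cacna1g at 6.63 ± 0.739 FPKM, the N-type pore Cacna1b at 6.62 ± 0.626, the P/Q-type pore Cacna1a at 6.38 ± 0.822, the T-type pore Cacna1i at 5.43 ± 0.452 and Cacna2d1 at 5.16 ± 0.485. Within these 5, each overlapped the next in the order over the libraries. The L-type pore Cacna1c followed at 3.74 ± 0.245 FPKM and overlapped neither neighbour. The L-type pore Cacna1d at 2.60 ± 0.223, the R-type pore Cacna1e at 2.42 ± 0.287 and the T-type pore Cacna1h at 2.10 ± 0.186 FPKM closed the order and overlapped each other in turn. Cacna2d2 ranked 1, Cacna1c 7 and Cacna1h 10 in all 9 libraries, so no group had its own order at these places.

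**Figure D1:**
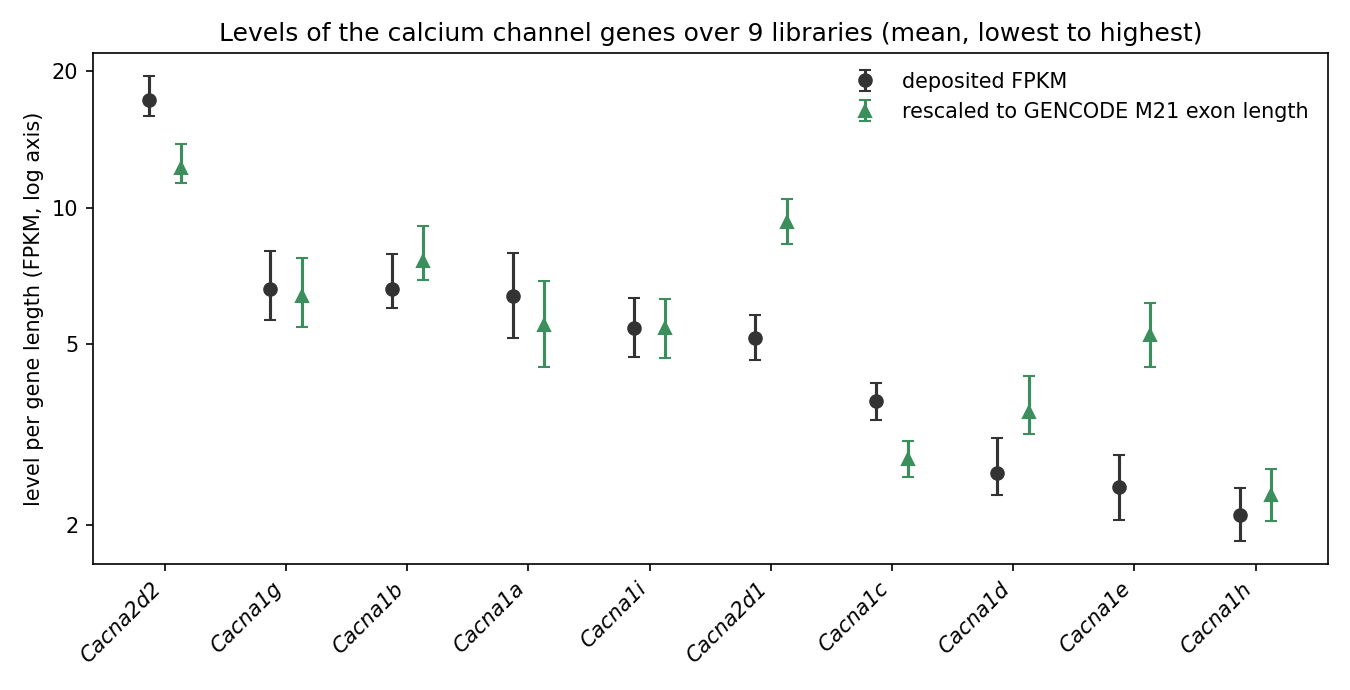
Level of each of the 10 genes per unit of length on a log axis, in deposited FPKM and with the GENCODE exon length in place of the length behind the FPKM. Points are the mean of 9 libraries and bars run from the lowest to the highest library; Cacna2d2 is the highest on both scales, while Cacna2d1 and Cacna1e move up with the shorter GENCODE length.

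The place of Cacna2d1 in that order rests on the gene length used. The length behind its deposited FPKM was 22401 bp, against 12416 bp for the union of its exons in GENCODE M21, a ratio of 1.80. For Cacna1e the lengths were 54654 and 25228 bp, a ratio of 2.17. Over 13154 genes with at least 50 counts the median ratio was 0.911, and it exceeded 2 in 6.96% of them. With GENCODE lengths, chosen as an alternative after the data were seen, Cacna2d1 took place 2 at 9.30 ± 0.875, behind Cacna2d2 at 12.3 ± 0.721, and Cacna1e took place 7 at 5.24 ± 0.621. Cacna1c then took place 9. Both scales kept Cacna2d2 at the top and Cacna1h at the bottom, and neither touches a comparison of 1 gene between groups.

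No difference in Cacna2d1 was detected between the 3 groups. It had 103, 113 and 123 CPM in SNI+LDN193189 libraries, 107, 129.7 and 108 CPM in SNI libraries, and 125, 129 and 102 CPM in sham libraries. The groups overlapped throughout, and the lowest of the 9 values was a sham library. Group means were 113 ± 9.77 CPM in SNI+LDN193189, 115 ± 12.8 in SNI and 119 ± 14.7 in sham (SD, n = 3 each). By edgeR's quasi-likelihood test, with Benjamini-Hochberg adjustment over all 18245 genes tested, the log2 fold change of SNI over sham was -0.05 (standard error 0.107, adjusted p 0.992). Its 95% interval ran from 0.818-fold to 1.14-fold. SNI+LDN193189 over SNI gave -0.02 (95% interval -0.26 to 0.22, adjusted p 0.9996), and SNI+LDN193189 over sham gave -0.07 (-0.31 to 0.17, adjusted p 0.873). Leaving out a library moved the Cacna2d1 value over SNI above 0 in 2 cases, to 0.07 when SNI replicate 2 was dropped and to 0.04 when this was SNI+LDN193189 replicate 1. In bulk cord, fewer cells expressing a gene and less RNA per cell cannot be told apart, and a change confined to a few cells or to 1 side would be diluted in such a library.

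The gene lies at chr5:15934691-16374511 on the plus strand of GRCm38 and codes for the alpha2delta subunit that binds gabapentin and pregabalin with high affinity. Its mRNA is known to increase in the cell bodies of injured sensory neurons, which lie in the ganglia and not in the cord. Its close relative Cacna2d2, which also binds gabapentin, lies at chr9:107399612-107529343 on the plus strand. Cacna2d2 had 92.5, 96.9 and 98.3 CPM in SNI+LDN193189, 96.6, 101 and 97.0 CPM in SNI, and 109, 97.9 and 88.2 CPM in sham. The sham libraries here held both the highest and the lowest value. Its log2 fold changes were -0.04 for SNI+LDN193189 over SNI (95% interval -0.18 to 0.11), -0.04 for SNI+LDN193189 over sham (-0.18 to 0.11) and 0.00058 for SNI over sham (-0.14 to 0.14), and it did not pass the test in any of them.

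**Figure D2:**
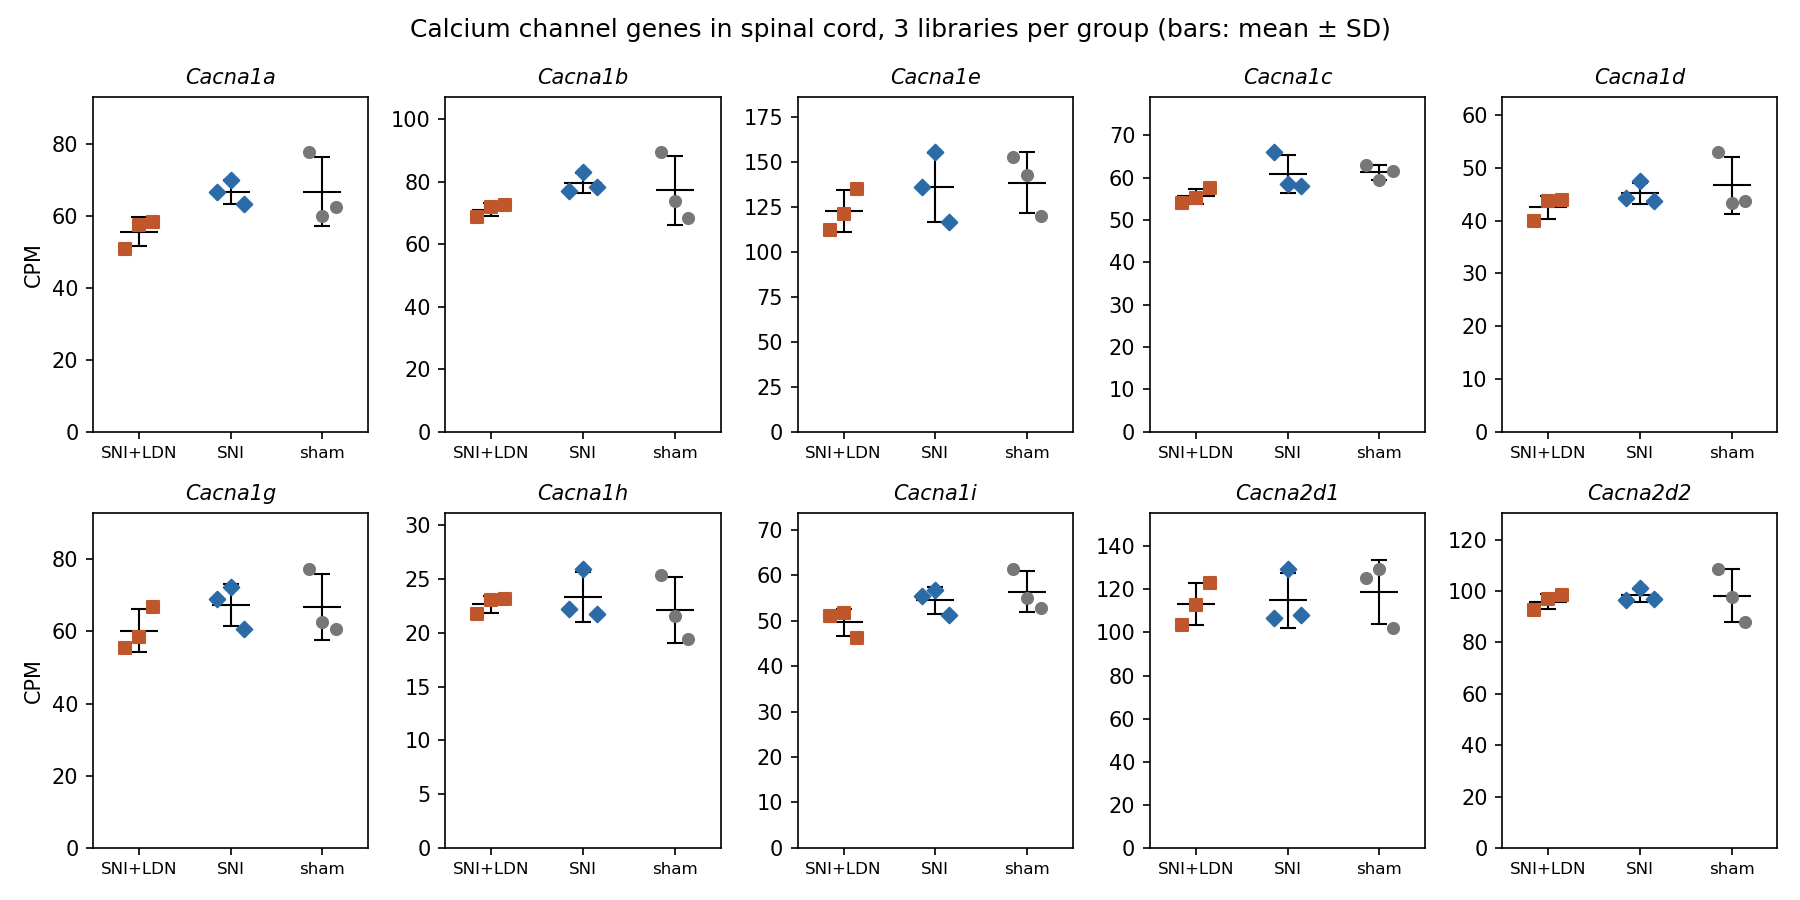
CPM of each of the 10 genes in every library, 1 panel per gene, with SNI+LDN193189 (written SNI+LDN), SNI and sham from left to right and axes that start at 0. Points are libraries and bars the group mean ± SD; the SNI+LDN193189 points of Cacna1a and Cacna1c lie below all SNI and sham points, and those of Cacna2d1 lie among them.

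Among the pores of the presynaptic (Cav2) family, Cacna1a showed the clearest separation. It codes for the P/Q-type pore, which drives fast transmitter release at many central synapses, and lies at chr8:84388440-84640246 on the plus strand. Cacna1a had 50.9, 57.5 and 58.3 CPM in SNI+LDN193189 libraries, 66.8, 70.0 and 63.3 CPM in SNI libraries, and 77.7, 59.9 and 62.6 CPM in sham libraries. Every SNI+LDN193189 library was below every SNI and every sham library, while SNI and sham overlapped. The mean was 55.6 ± 4.05 CPM in SNI+LDN193189, against 66.7 ± 3.38 in SNI and 66.7 ± 9.60 in sham (SD, n = 3 each).

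The log2 fold change of Cacna1a was -0.26 for SNI+LDN193189 over SNI (standard error 0.0910, 95% interval -0.46 to -0.07), which is a level 0.834 times that in SNI. The unadjusted p was 0.0129 and the adjusted p was 0.9996 in edgeR, so the gene did not pass the test. Against sham the value was also -0.26 (-0.46 to -0.07, unadjusted p 0.0127, adjusted p 0.527). Both comparisons use the same SNI+LDN193189 libraries and are not independent of each other. Without sham replicate 1, the library with muscle RNA, SNI+LDN193189 over sham was -0.14 for Cacna1a, and without SNI+LDN193189 replicate 1 it was -0.21. Over SNI, leaving out each library in turn gave -0.30 to -0.20. SNI over sham was -0.00088 (-0.20 to 0.19).

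Cacna1b, the N-type pore of pain fibre terminals and target of ziconotide (chr2:24603887-24763152, minus strand), had 68.7, 71.8 and 72.7 CPM in SNI+LDN193189. It had 77.1, 83.2 and 78.2 CPM in SNI, and 89.4, 73.8 and 68.4 CPM in sham. SNI+LDN193189 lay below SNI without overlap, whereas the sham libraries spanned both. The log2 fold change of SNI+LDN193189 over SNI was -0.16 (95% interval -0.34 to 0.01, unadjusted p 0.0652, adjusted p 0.9996 in edgeR). Over sham it was -0.12 for SNI+LDN193189 and 0.04 for SNI. Without sham replicate 1, SNI+LDN193189 over sham was -0.0021 for Cacna1b, and without sham replicate 3 it was -0.20.

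Cacna1e, the R-type pore (chr1:154390731-154884501, minus strand), had more counts than the other 9 genes, with 112, 121 and 135 CPM in SNI+LDN193189, 136, 155 and 117 CPM in SNI, and 153, 143 and 119.8 CPM in sham. The groups overlapped in all 3 comparisons. Its log2 fold changes were -0.15 for SNI+LDN193189 over SNI, -0.17 for SNI+LDN193189 over sham and -0.02 for SNI over sham, with 95% intervals that all included 0. For Cacna1e the value over SNI was -0.09 when SNI+LDN193189 replicate 1 was dropped and -0.22 when its replicate 3 was. Dropping SNI replicate 2 gave -0.04, and dropping SNI replicate 3 gave -0.25. Over sham, Cacna1e was at -0.12 when SNI+LDN193189 replicate 1 was dropped, at -0.10 when sham replicate 1 was, and at -0.27 when sham replicate 3 was.

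Of the L-type pores, Cacna1c, common in heart and brain (chr6:118587240-119196418, minus strand), had 53.9, 55.2 and 57.5 CPM in SNI+LDN193189. It had 66.0, 58.4 and 58.1 CPM in SNI, and 62.9, 59.5 and 61.5 CPM in sham. All SNI+LDN193189 libraries were again below all others, with only a narrow gap between the nearest libraries. SNI+LDN193189 over SNI was -0.13 on the log2 scale (95% interval -0.26 to 0.0011, unadjusted p 0.0517), and -0.07 without SNI replicate 1. SNI+LDN193189 over sham was -0.14 (-0.27 to -0.01, unadjusted p 0.0372, adjusted p 0.568 in edgeR). Cacna1c did not pass the test in either comparison, and SNI over sham was -0.01.

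Cacna1d, an L-type pore that opens at lower voltage and shapes pacemaking (chr14:30039939-30491455, minus strand), had 40.0, 43.6 and 43.8 CPM in SNI+LDN193189, 44.2, 47.5 and 43.8 CPM in SNI, and 52.9, 43.4 and 43.7 CPM in sham. Apart from sham replicate 1 and SNI replicate 2, the values lay between 40.0 and 44.2 CPM. Its log2 fold changes were -0.09, -0.14 and -0.05 for SNI+LDN193189 over SNI, SNI+LDN193189 over sham and SNI over sham. For Cacna1d the value over sham was -0.04 without sham replicate 1, and the value over SNI was -0.05 when either SNI+LDN193189 replicate 1 or SNI replicate 2 was dropped. Exons of Cacna1d share 589 bp with Chdh on the opposite strand, a gene with at most 496 counts in a library. The strand setting of the counting is not given in the sources used here, so reads of the shared stretch cannot be told apart. The same holds for 158 bp that Cacna1h shares with Tpsg1, which had at most 12 counts, and for 435 bp that Cacna1a shares with Gm16183, which was listed at 0.

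Of the T-type pores, Cacna1i (chr15:80287238-80398279, plus strand) is found largely in neurons. It had 51.1, 51.6 and 46.2 CPM in SNI+LDN193189, 55.5, 56.7 and 51.2 CPM in SNI, and 61.4, 55.0 and 52.7 CPM in sham. SNI+LDN193189 lay below sham without overlap and overlapped SNI by a narrow margin. The log2 fold change of SNI+LDN193189 over sham was -0.18 (95% interval -0.34 to -0.03, unadjusted p 0.0198, adjusted p 0.547 in edgeR), and over SNI it was -0.13 (-0.29 to 0.02). Without sham replicate 1, SNI+LDN193189 over sham was -0.12 for Cacna1i. SNI over sham was -0.05.

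Cacna1g (chr11:94408391-94474198, minus strand), the T-type pore known for burst firing in the thalamus, had 55.3, 58.6 and 66.7 CPM in SNI+LDN193189, 69.0, 72.2 and 60.8 CPM in SNI, and 77.4, 62.5 and 60.7 CPM in sham. Cacna1h (chr17:25374285-25433783, minus strand), the T-type pore known for sensitising sensory neurons, was the least abundant, with 21.8, 23.0 and 23.2 CPM in SNI+LDN193189, 22.2, 26.0 and 21.8 CPM in SNI, and 25.4, 21.5 and 19.4 CPM in sham. Groups overlapped for both genes in all comparisons. Log2 fold changes of Cacna1g were -0.16 for SNI+LDN193189 over SNI, -0.15 for SNI+LDN193189 over sham and 0.0090 for SNI over sham. Over sham, SNI+LDN193189 was -0.04 for Cacna1g without sham replicate 1, -0.10 when SNI+LDN193189 replicate 1 was dropped and -0.23 when its replicate 3 was. Over SNI, dropping SNI+LDN193189 replicate 1 gave -0.10, dropping its replicate 3 gave -0.24, and dropping SNI replicate 2 gave -0.11. The log2 fold changes of Cacna1h were -0.04 for SNI+LDN193189 over SNI, 0.03 for SNI+LDN193189 over sham and 0.08 for SNI over sham. Usp5, an enzyme known to stabilise the Cacna1h channel protein by removing ubiquitin, averaged 197 CPM in SNI+LDN193189, 189 in SNI and 181 in sham. Its SNI+LDN193189 over sham log2 fold change was 0.12 (unadjusted p 0.0247, adjusted p 0.547 in edgeR).

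**Figure D3:**
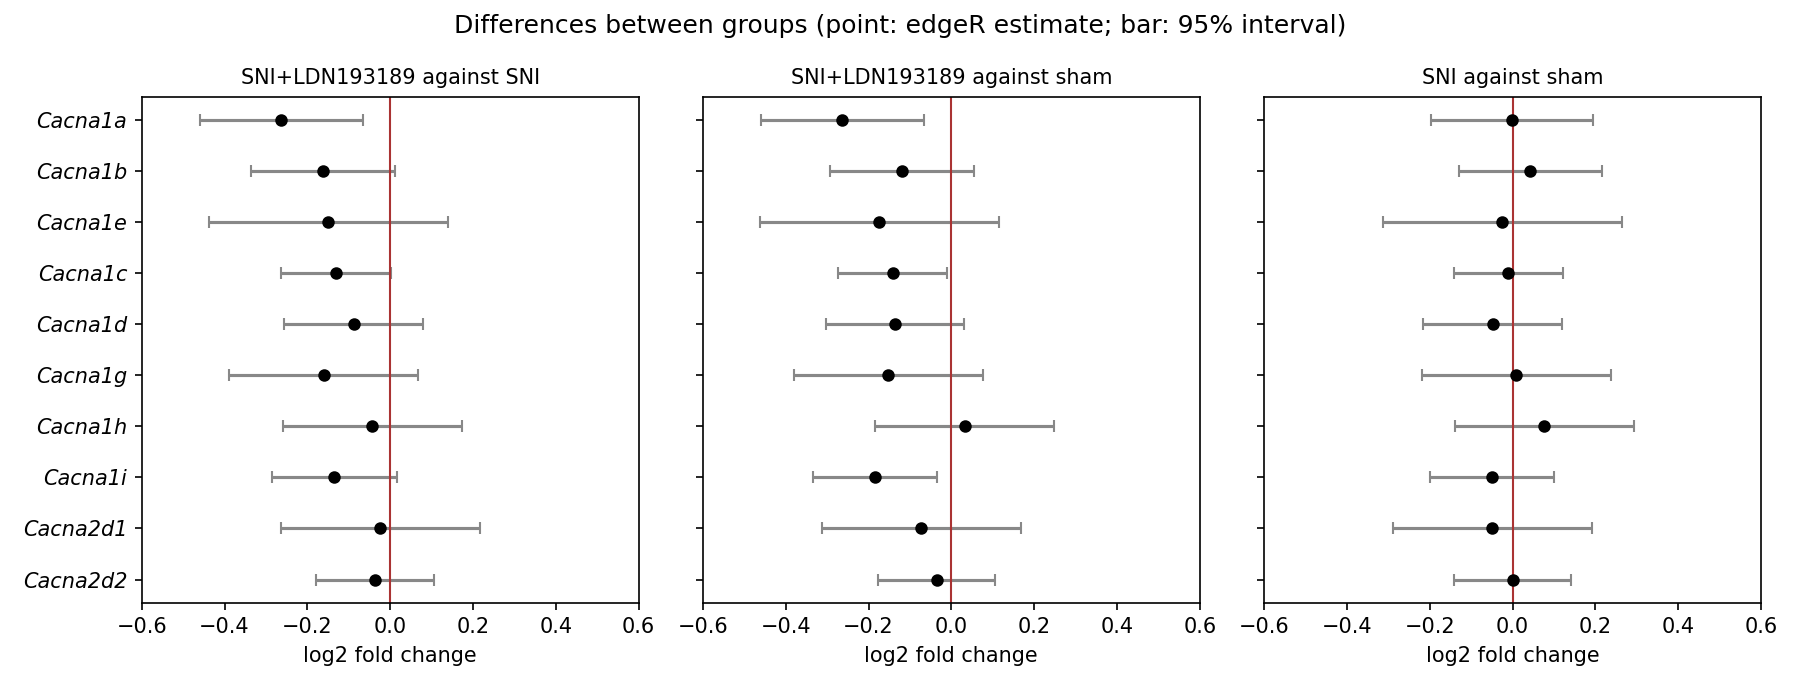
Log2 fold changes of the 10 genes from the edgeR fit, with panels for SNI+LDN193189 over SNI, SNI+LDN193189 over sham and SNI over sham from left to right; bars are 95% intervals. All 10 points lie below 0 in the left panel and 9 of 10 in the middle panel, and the intervals of Cacna1a exclude 0 in both.

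Across the 10 genes, none passed the adjusted threshold of 0.05 in any comparison. The background was close to none as well: edgeR called 0% of 18245 genes for SNI over sham, 0.00548% for SNI+LDN193189 over SNI and 0.0164% for SNI+LDN193189 over sham. For SNI over sham, 972 genes (5.33%) had an unadjusted p under 0.05, 0 of them described here, and DESeq2 called 22 genes, with none of the 10 among them. In the joint test of the 3 groups, in which 0.00548% of genes were called, Cacna1a had the smallest p of the 10 (unadjusted 0.0193, adjusted 0.786 in edgeR). At an unadjusted p under 0.05 the 10 genes gave 1 in SNI+LDN193189 over SNI, lower, against 2.19% of all genes, and 3 in SNI+LDN193189 over sham, all lower, against 4.49%.

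The direction was more uniform than the size. In SNI+LDN193189 over SNI all 10 genes had a log2 fold change below 0, as had 50.2% of all genes tested, and the median was -0.13 against -0.00075 for all genes. In SNI+LDN193189 over sham 9 of 10 were below 0, against 52% of all genes, with a median of -0.14 against -0.0069. In SNI over sham 6 of 10 were below 0, against 49.9%, with a median of -0.0057 against 0.00048. Groups did not overlap, with SNI+LDN193189 the lower, for 3 genes against SNI (Cacna1a, Cacna1b and Cacna1c; 5.55% of all genes) and for 3 against sham (Cacna1a, Cacna1c and Cacna1i; 6.31%). SNI+LDN193189 was below every other library for Cacna1a and Cacna1c, which 1.62% of all genes shared. SNI and sham overlapped for all 10, while SNI was the lower without overlap in 4.43% of genes and the higher in 4.45%.

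The 10 genes tended to move together from library to library, though not every pair did, so these counts are not 10 separate observations. All 10 were above their own mean over the libraries in sham replicate 1 and 9 were in SNI replicate 2, against 0 in SNI+LDN193189 replicate 1. Sham replicate 1 was the highest of the 9 libraries for 6 of the 10 genes, and for 14.1% of all genes tested. SNI+LDN193189 replicate 1 was the lowest for 5 and sham replicate 3 for 4. No share of all genes was computed for the lowest value or for lying above the mean. Summed over the 10 genes, the level was 649.8, 692 and 725 CPM in SNI+LDN193189, 740.0, 800.4 and 699 CPM in SNI, and 834, 745 and 679 CPM in sham. The 3 groups thus overlapped in the sum, and the sham libraries alone covered nearly the whole range. Pearson's r of log2 CPM over the 9 libraries averaged 0.659 over the 45 gene pairs, against 6.93e-05 over all pairs of genes tested and 0.498 among 13 neuronal marker genes. The 45 pairs ran from -0.003 for Cacna1c with Cacna1h to 0.927 for Cacna1a with Cacna1d. These r values are descriptions, since all genes share the same 9 libraries. Scaling the libraries centres most genes and so holds the mean over all pairs near 0. That mean is therefore no measure of how unusual 0.659 is.

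**Figure D4:**
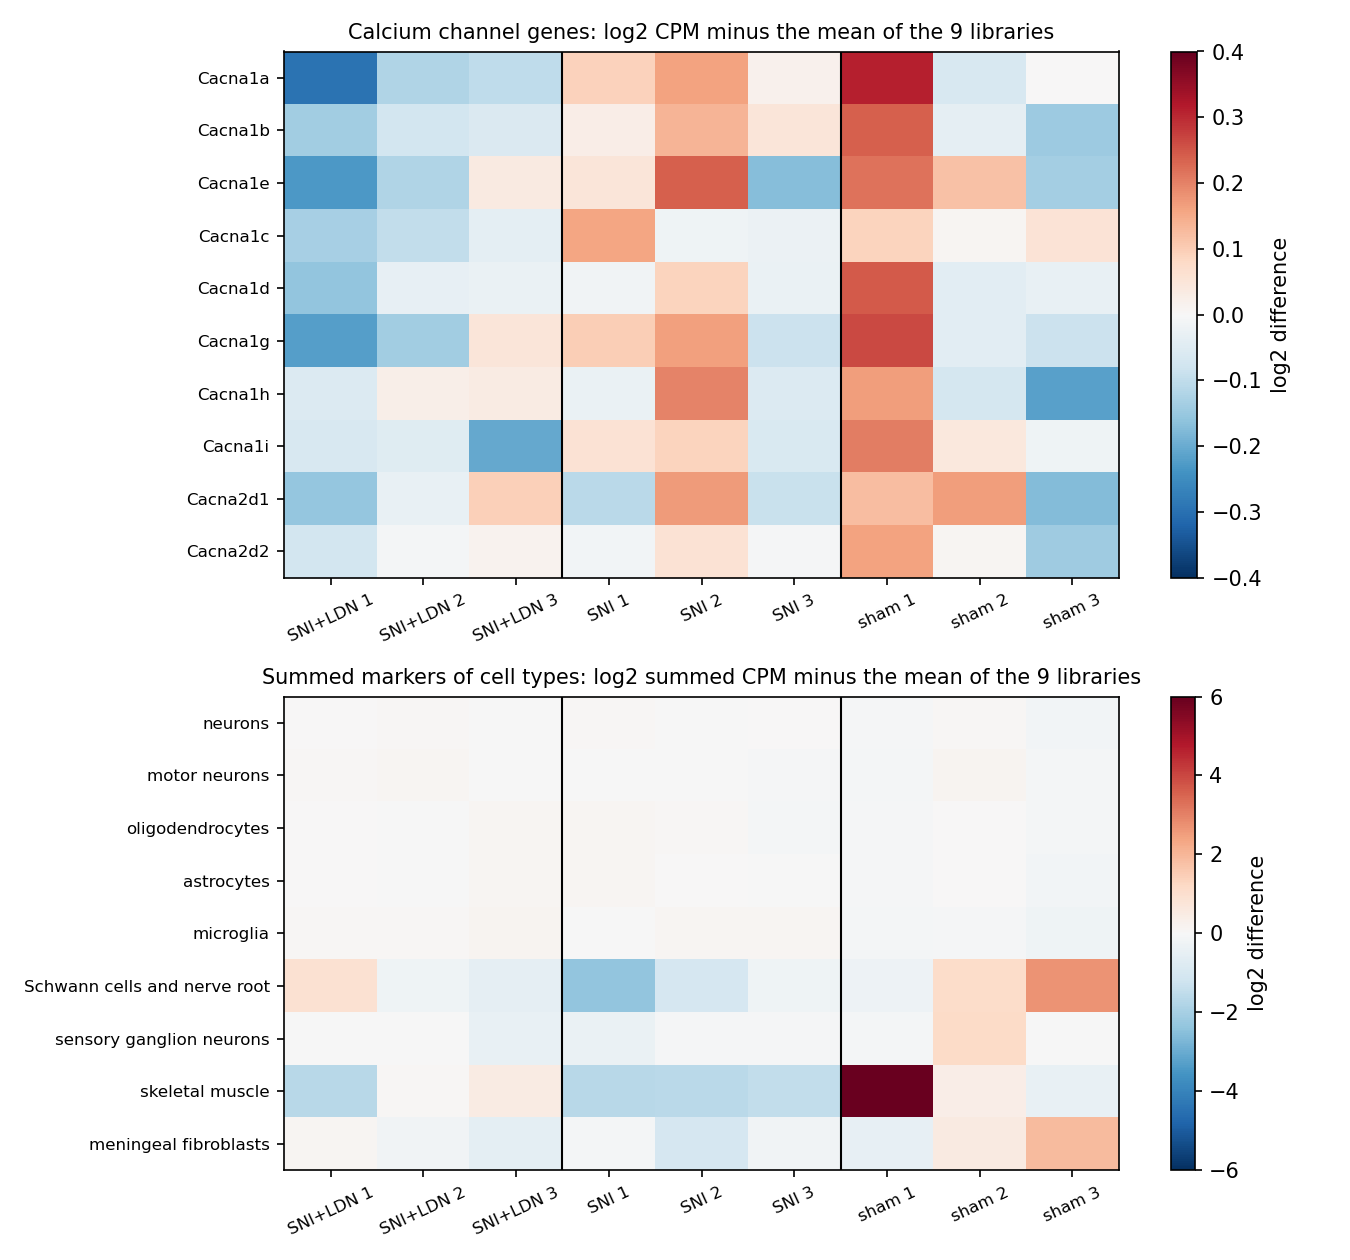
Log2 deviation of each of the 10 genes from its mean over the 9 libraries, with summed levels of cell type marker lists in the lower panel, in columns for SNI+LDN193189 (written SNI+LDN), SNI and sham libraries from left to right. Sham replicate 1 is high in all 10 genes and SNI+LDN193189 replicate 1 is low in all 10, while muscle markers are high in sham replicate 1 and Schwann cell markers in sham replicate 3.

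Marker levels also differed between libraries, and their part in this pattern was not tested. Schwann cell and nerve root genes summed to 1298, 566 and 481 CPM in SNI+LDN193189. They summed to 134, 341 and 583 CPM in SNI, and to 557, 1480 and 4423 CPM in sham. SNI+LDN193189 replicate 1 was low and sham replicate 1 high in all 10 channel genes. The channel sum was 740 CPM in SNI replicate 1, the lowest in Schwann cell genes. It was 745 and 679 CPM in sham replicates 2 and 3, the highest in them. The summed level of 13 neuronal genes was 10437 to 11224 CPM in SNI+LDN193189, 10547 to 11354 in SNI and 9617 to 11157 in sham, and these ranges overlapped. The muscle genes that stood out in sham replicate 1 came with Cacna1s, the L-type pore of skeletal muscle, at 6, 24 and 8 counts in SNI+LDN193189, 8, 8 and 10 in SNI, and 252, 22 and 30 in sham. Of the sensory ganglion markers, the sodium channel gene Scn10a had 11.8 CPM in sham replicate 2 and at most 1.51 CPM in the other libraries. Cacna2d1 was at 129 CPM in sham replicate 2. It was at 129.7 CPM in SNI replicate 2, with 1.51 CPM of Scn10a, and at 125 CPM in sham replicate 1, with 0.965 CPM of Scn10a. Leaving out 1 library turned the count of genes below 0 in SNI over sham: it was 1 of 10 without sham replicate 1, 3 without SNI replicate 3 and 10 without sham replicate 3. These counts were added after the data were seen. In SNI+LDN193189 over SNI the count stayed between 8 and 10 under each library left out, and the median ran from -0.17 to -0.08, nearest to 0 without SNI replicate 2. In SNI+LDN193189 over sham the count was also between 8 and 10, but the median was -0.04 without sham replicate 1, against -0.14 with it, and -0.19 without sham replicate 3. Without sham replicate 1 the value over sham was 0.14 for Cacna1h and 0.04 for Cacna2d2.

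The differences were recomputed without replicate 3 of SNI+LDN193189, the library low in the injury genes and in Hoxd10. Without it, SNI+LDN193189 over SNI was -0.30 for Cacna1a, -0.18 for Cacna1b, -0.16 for Cacna1c and -0.09 for Cacna2d1, each farther from 0 than with it, but -0.09 for Cacna1i, closer to 0 than the -0.13 with it. SNI+LDN193189 over sham was then -0.30 for Cacna1a and -0.17 for Cacna1c, and it was -0.14 for Cacna1i, closer to 0 than the -0.18 with it. None of these passed the test.

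The spread within a group set what could be seen. The coefficient of variation of CPM had a median over the 10 genes of 5.51% in SNI+LDN193189, 6.34% in SNI and 12.3% in sham. Counts per library ran from 722 to 965 for Cacna1h and from 3902 to 5774 for Cacna1e. The intervals rest on 3 libraries a group, with a spread shared over all 9 and moderated across genes. Their total degrees of freedom had a median of 14.7 over the 10 genes. The standard error was the size of the log2 fold change divided by the square root of the test's F value. The intervals were built from it with quantiles of the t distribution.

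The make-up of each family was also compared. It was taken as each gene's share of the summed FPKM of its family, counting only the genes described here. This share does not depend on the library total. Cacna2d3 is thus left out of the alpha2delta sum, though it averaged 20.8 FPKM in SNI+LDN193189, 21.3 in SNI and 20.2 in sham. The length behind the FPKM of Cacna2d3 was 0.536 times its GENCODE exon length. Cacna2d1 made up 22.9 ± 1.01% of the summed Cacna2d1 and Cacna2d2 level in SNI+LDN193189, 22.7 ± 1.46% in SNI and 23.4 ± 1.40% in sham (SD, n = 3 each). The size of this share rested on the gene length used. Over the libraries the Cacna2d1 share was 41.4 to 45.8% with GENCODE lengths and 52.5 to 56.9% from counts. Cacna1a made up 40.0 ± 0.846% of the Cav2 pores in SNI+LDN193189, 41.7 ± 0.536% in SNI and 42.1 ± 1.83% in sham. Cacna1b made up 44.1 ± 1.19%, 42.9 ± 1.28% and 42.0 ± 0.749% in SNI+LDN193189, SNI and sham. Cacna1h made up 15.8 ± 0.158% of the T-type pores in SNI+LDN193189, 14.8 ± 0.783% in SNI and 14.0 ± 0.462% in sham.

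Of 24 such comparisons, 4 reached p = 0.1, the smallest value an exact two-sided permutation test of 3 against 3 libraries allows, and all 4 had an adjusted p of 0.6. They were the Cacna1a share in SNI+LDN193189 minus SNI (-1.78 percentage points), the Cacna1b share in SNI+LDN193189 minus sham (2.10 points), and the Cacna1h share in SNI+LDN193189 minus SNI (0.956 points) and minus sham (1.77 points). Groups did not overlap in these 4 on the FPKM scale, and no share could pass the threshold at this size. With shares taken from counts, the Cacna1a groups overlapped, at 21.9 to 23.0% in SNI+LDN193189 against 22.7 to 24.5% in SNI, and so did the Cacna1b groups, at 27.3 to 29.7% in SNI+LDN193189 against 26.7 to 27.9% in sham. The Cacna1h groups did not overlap on that scale either. With GENCODE lengths the 4 did not overlap, but the Cacna1b groups all but touched, at 41.141% in SNI+LDN193189 replicate 3 and 41.138% in sham replicate 1. The nearest Cacna1a shares were 29.5% in SNI+LDN193189 replicate 2 and 29.7% in SNI replicate 2.

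The genes whose log2 CPM followed Cacna2d1 most closely over the 9 libraries, of 18244, were Kcnd3, a potassium channel subunit (r = 0.968), Ebf3, a transcription factor (0.962), Calb1, the calcium-binding protein calbindin (0.961), Trim66 (0.959) and Nol4 (0.949). Picking the highest of so many values over so few libraries gives a high r even among unrelated genes, and no test was run. Among the other 9 channel genes, Cacna1e was the most like Cacna2d1 with r = 0.849, at place 103, and Cacna2d2 followed with 0.757, at place 341. Cacna1a had r = 0.425 and Cacna1c 0.0451, the lowest of the 9.

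The other channel subunits showed no call either. Of 16 on the list 14 were tested, and 0 passed in any comparison. In SNI+LDN193189 over SNI 10 of the 14 were below 0 with a median of -0.05, and in SNI+LDN193189 over sham 7 were. In SNI over sham 5 were below 0. Cacna2d3, the alpha2delta relative that gabapentin does not bind, averaged 98.0 ± 3.08 CPM in SNI+LDN193189, 99.8 ± 5.04 in SNI and 94.2 ± 8.16 in sham (SD, n = 3 each). Cacnb4, a beta subunit that partners presynaptic pores, averaged 33.4 ± 1.75 CPM in SNI+LDN193189, 37.4 ± 2.28 in SNI and 36.9 ± 3.61 in sham, with a log2 fold change of SNI+LDN193189 over SNI of -0.16 (unadjusted p 0.0600, adjusted p 0.9996 in edgeR). Cacnb3 averaged 28.1 CPM in SNI+LDN193189, 29.4 in SNI and 30.0 in sham. Cacng2, better known as stargazin, an auxiliary subunit of AMPA receptors, averaged 108 CPM in SNI+LDN193189, 109 in SNI and 102 in sham. Cacnb2 averaged 56.7, 55.4 and 52.5 CPM, and Cacng3 16.4, 15.2 and 14.2 CPM, in SNI+LDN193189, SNI and sham.

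Genes that regulate the channels gave no call among 18 tested, with medians between -0.0027 and 0.05 in the 3 comparisons. Cbarp, a protein that dampens calcium channel activity through beta subunits, averaged 123 CPM in SNI+LDN193189, 126 in SNI and 114 in sham. SNI over sham was 0.15 for Cbarp on the log2 scale without overlap (unadjusted p 0.0140, adjusted p 0.927 in edgeR). Kcnip3, the calcium sensor also called DREAM, averaged 51.5 CPM in SNI+LDN193189, 58.5 in SNI and 55.1 in sham, and SNI+LDN193189 over SNI was -0.18 for Kcnip3 (unadjusted p 0.0260, adjusted p 0.9996). Gem, a small GTPase that holds back channels at the membrane, averaged 5.62 CPM in SNI+LDN193189, 4.77 in SNI and 4.29 in sham.

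Among proteins that interact with alpha2delta subunits, 9 of 10 were tested, Prnp was listed at 0 in all libraries, and 0 passed. Thbs4, a thrombospondin that binds the alpha2delta subunit encoded by Cacna2d1, had 0.402, 1.31 and 0.516 CPM in SNI+LDN193189, 0.486, 0.538 and 0.554 CPM in SNI, and 1.56, 5.45 and 2.31 CPM in sham. Sham was the highest group without overlap. The log2 fold change of Thbs4 was -2.06 for SNI+LDN193189 over sham (adjusted p 0.362) and -2.55 for SNI over sham (standard error 0.531, unadjusted p 0.000530, adjusted p 0.644 in edgeR). Sham replicate 2, the highest in Thbs4, was also the highest in the summed level of the 8 sensory ganglion markers that passed the filter. That sum was 99.0 CPM, against 31.9 to 43.5 CPM in the other libraries. The part of ganglion RNA in Thbs4 was not tested. Of the NMDA receptor subunits on that list, Grin2a averaged 75.7 CPM in SNI+LDN193189, 73.8 in SNI and 82.0 in sham, and Grin1 87.6, 95.2 and 89.2 CPM. Lrp1, a receptor that helps alpha2delta subunits reach the membrane, averaged 409 CPM in SNI+LDN193189, 432 in SNI and 427 in sham.

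The 15 genes of the presynaptic active zone, where P/Q-type and N-type channels sit, also gave 0 calls. In SNI+LDN193189 over SNI 11 of 15 were below 0 with a median of -0.03. Unc13a, which primes synaptic vesicles for release, averaged 111 CPM in SNI+LDN193189, 124 in SNI and 123 in sham. SNI+LDN193189 over SNI was -0.15 for Unc13a without overlap (unadjusted p 0.0416, adjusted p 0.9996 in edgeR). Erc1 averaged 34.6 CPM in SNI+LDN193189, 36.2 in SNI and 38.5 in sham, and the fusion protein gene Snap25 averaged 2933 CPM in SNI+LDN193189, 2877 in SNI and 2702 in sham. Syt2, a calcium sensor of fast release, averaged 822 CPM in SNI+LDN193189, 839 in SNI and 776 in sham.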

How the data were processed

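Whole-number read counts and FPKM for 40879 symbols in 9 libraries were deposited by the authors. Per the labels' protocols, poly(A) RNA was made into strand-marked (dUTP) libraries and read in pairs; the submitters' processing notes name mm10. No source used here names the aligner, counter, strand setting or annotation. Dividing counts by the deposited FPKM and the library totals gave the same length for a gene in each library, and this length was used.

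The counts were tested with edgeR 4.0.16 (R 4.3.3): filterByExpr left 18245 genes, TMM scaling (factors 0.984 to 1.02), 3 group means in 1 robust quasi-likelihood model (6 residual degrees of freedom), and Benjamini-Hochberg adjustment over all genes, called under 0.05. Even numbers made up 70.7 to 71.8% of the counts above 0, so a printed count may not equal a number of sequenced fragments. This was not tested beyond an alternative with counts halved. In all, 14594 symbols were at 0 in every library. Among them were Prnp, the astrocyte marker Aqp4 and the microglia marker P2ry12, although other markers of these cells had counts. A listed 0 therefore need not mean that the RNA was absent. Alternatives were DESeq2 1.42.0, limma 3.58.1 on log2(FPKM + 0.1) and log2(FPKM + 1), RLE scaling, no filter, counts halved, a replicate block and leaving out each library. No columns were identical. Positions are from GENCODE M21 on GRCm38, start windows from RefSeq (GRCm38.p6). The fit was tested on simulated data. Figures were drawn with matplotlib 3.10.9.

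The genes, lists and tests were chosen with earlier results of these data known. All 10 channel genes are named. Of the 4 lists around them, genes called in any comparison and up to 4 with the smallest joint p are named, with Cacna2d3, Cacnb4, Cacnb3 and Cacng2.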

Additional observations from a re-analysis of the deposited data

How the results depend on the processing

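None of the 10 genes was called in any comparison or in the joint test under any alternative run. Their 30 log2 fold changes were recomputed 480 times in all, and the lowest adjusted p was 0.185 (Cacna1a, SNI+LDN193189 over sham, without sham replicate 2). The number of all genes called did change. For SNI over sham edgeR called 0, DESeq2 22, and leaving out a library gave 0 to 38, the 38 without sham replicate 1. For SNI+LDN193189 over SNI, against 1 in the main test, the count was 2 with no filter on low counts, 6 by DESeq2, 0 by limma with either pseudocount, 0 with the replicate block, and 0 to 2 with a library left out. For SNI+LDN193189 over sham, against 3, it was 30 with no filter, 73 by DESeq2, 1 by limma with either pseudocount, 4 with the replicate block, and 1 to 17 with a library left out, the 17 without SNI replicate 3. The cause was not tested. Same-numbered libraries of different groups showed little shared deviation (r of -0.109 to 0.144 over 9 pairs, 2 of them over 0.1). With 3 libraries a group this cannot exclude a pairing by number, and the main fit used none.

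Signs turned in 35 of the 480 values, in 14 of the 30 fold changes, none beyond 0.122. SNI over sham for Cacna1a was 0.00050 with no filter and 0.0018 with the replicate block, and for Cacna2d2 it was -0.00096 with RLE scaling, -0.00095 by DESeq2, -0.0046 by limma at either pseudocount and -0.0021 with counts halved. With a library left out, SNI over sham ran from -0.0726 to 0.122 for Cacna1a, -0.0399 to 0.16 for Cacna1b, -0.13 to 0.0747 for Cacna1e, -0.0725 to 0.0224 for Cacna1c, -0.0979 to 0.0510 for Cacna1d, -0.0589 to 0.13 for Cacna1g, -0.0117 to 0.19 for Cacna1h, -0.0982 to 0.0151 for Cacna1i, -0.15 to 0.0155 for Cacna2d1 and -0.0742 to 0.0788 for Cacna2d2. SNI+LDN193189 over SNI ran from -0.0907 to 0.0425 for Cacna1h and -0.0896 to 0.0733 for Cacna2d1. SNI+LDN193189 over sham ran from -0.0562 to 0.14 for Cacna1h and -0.11 to 0.0422 for Cacna2d2. Shares computed from counts turned the Cacna1a share in SNI minus sham to 0.044 percentage points, and with a library left out it ran from -1.41 to 0.382. The Cacna2d1 share ran from -0.383 to 1.0 points for SNI+LDN193189 minus SNI, -1.03 to 0.326 for SNI+LDN193189 minus sham and -1.49 to 0.162 for SNI minus sham.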
